A study of Cucumis sativus with 2 samples.

Results

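Phloem protein 2 (PP2) genes were described in 2 RNA libraries of bending cucumber (Cucumis sativus) fruit, 1 of the ventral and 1 of the dorsal side, both taken 2 days after anthesis. The members are all rows of the read table whose symbol is that of an A-type or B-type PP2 gene or whose description names the protein, which gave 26 of 20700 genes, 17 of A type and 9 of B type. Symbols are those of the Arabidopsis homologue in the deposited table, so a symbol such as PP2-A1 can stand for several cucumber copies, which are told apart here by their Csa identifiers. The labels give no cultivar, treatment or number of fruits for either side, and the design compares the sides with 1 library each. No difference below therefore has a replicate check, and no test between the sides can be made.

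PP2 is the abundant lectin of phloem sap first known from cucurbits, where it is made in companion cells, passes through plasmodesmata into sieve elements and is cross-linked with the filament protein PP1 when a sieve tube is wounded. The plant family built on its sugar-binding domain is wider than the sap protein. In Arabidopsis the A type includes plain lectins such as PP2-A1, which binds N-acetylglucosamine oligomers, and members such as PP2-A11 to PP2-A15 that also carry an F-box, the part of a ubiquitin ligase that docks to its core. B-type members carry an F-box as well. Domains of the cucumber proteins were not examined here.

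Counted reads came to 21863715 in the ventral library and 11893394 in the dorsal one. PP2 genes took 0.467% of the ventral and 0.541% of the dorsal reads. Levels between genes are compared as RPKM, the deposited reads per kilobase scaled for depth. Ratios are ventral over dorsal reads after scaling by the trimmed mean of M values (TMM). The TMM-scaled size of the ventral library was 2.13 times that of the dorsal one, against 1.84 times by counted reads. The ratios are given on the log2 scale, where a negative value means higher in the dorsal library, with exact 95% counting intervals in brackets. A gene counted as measured with at least 20 reads over both libraries, and as standing apart when its ratio was at least 2-fold either way with an interval that excludes a ratio of 1. Over all 17462 measured genes, 13.6% stood apart with a ventral excess and 11.1% with a dorsal excess. Intervals cover counting error only, and in bulk tissue fewer phloem cells and less RNA per cell cannot be told apart.

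Of the 26 members 21 were measured. A single one, a PP2-A1 copy, stood apart with a ventral excess and 5 with a dorsal excess, while the other 15 did not. The ratio was below 0 for 15 members and above 0 for 6, with a median of -0.59, against 8503 below and 8959 above and a median of 0.03 over all measured genes. The 5 dorsal calls were 2 copies of PP2-A1, 2 of PP2-A9 and 1 of PP2-B10. Members are short, and short transcripts as a whole leaned to the dorsal library; with the trend on length removed, as described further on, the median was -0.23 and 3 of the 5 dorsal calls were left.

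All 7 copies of PP2-A1 were measured, and 2 of them held most of the family's RNA. Csa7G056500, on chromosome 7, had 53538 ventral and 36240 dorsal reads and an RPKM of 4625 and 5641, at ranks 5 and 3 among the levels of all genes. It made up 69.7% of the summed ventral and 73.3% of the summed dorsal RPKM of the 17 A-type genes. Csa1G542510, on chromosome 1, had 32542 and 14544 reads and an RPKM of 1515 and 1220.4, at ranks 28 and 69 among all genes. The next highest value of any member was 277.

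The other PP2-A1 copies lay far lower. Csa4G500830 had an RPKM of 110.0 in the ventral library and 277 in the dorsal one, and Csa1G703070 of 61.0 and 83.6. Csa1G542500 stood at 9.09 and 5.46, Csa4G501830 at 6.88 and 12.3, and Csa1G703060 at 4.47 and 0.59. The order of the 7 levels was the same in both libraries except for one exchange. Csa1G542500 ranked above Csa4G501830 in the ventral library, where their counting intervals overlapped (7.72 to 10.6 and 5.68 to 8.26), and below it in the dorsal library, where they did not (4.08 to 7.16 and 10.1 to 14.8).

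**Figure D1:**
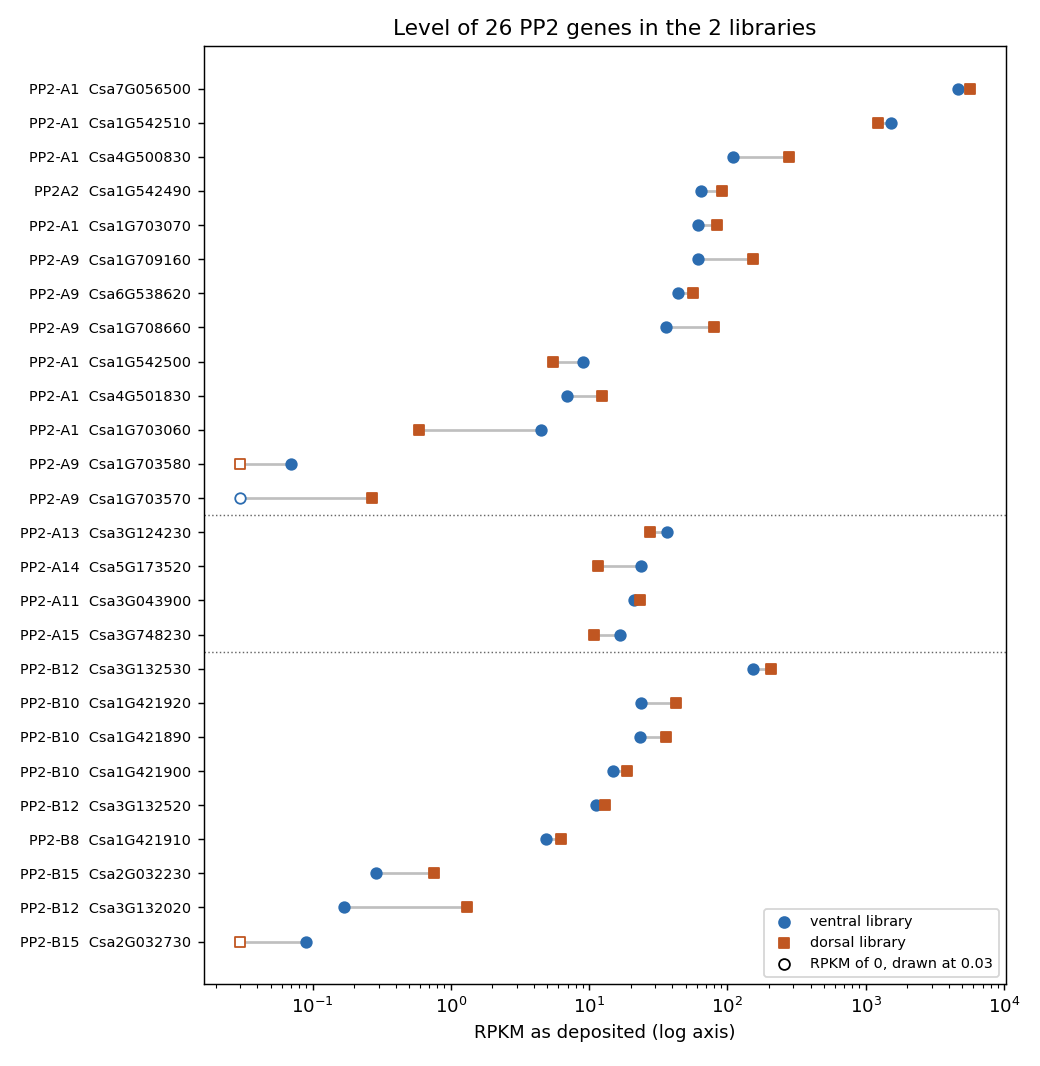
RPKM of all 26 PP2 genes on a log axis, with the ventral library as circles and the dorsal library as squares; dotted lines separate A1, A2 and A9 copies (top), A11 to A15 (middle) and B type (bottom), and open symbols are values of 0 drawn at 0.03. Csa7G056500 and Csa1G542510 sit well above all other members in both libraries.

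The PP2-A1 copies did not share a direction. Csa4G500830, with 1945 ventral and 2721 dorsal reads, stood apart 2.98-fold higher in the dorsal library (log2 ratio -1.58 [-1.66 to -1.49]). Csa4G501830, with 114 and 113 reads, was 2.11-fold higher there (-1.08 [-1.47 to -0.69]). Both carry neighbouring identifiers on chromosome 4. The most abundant copy, Csa7G056500, was 1.44-fold higher in the dorsal library (-0.53 [-0.55 to -0.51]) and Csa1G703070, with 1258 and 957 reads, 1.62-fold (-0.70 [-0.82 to -0.57]); neither stood apart.

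The other chromosome 1 copies of PP2-A1 leaned the other way or hardly at all. Csa1G703060, with 94 ventral and 7 dorsal reads, stood apart 6.30-fold higher in the ventral library (2.65 [1.56 to 4.01]), on the widest interval of any measured member. Csa1G542500, with 157 and 52 reads, had a log2 ratio of 0.50 [0.04 to 0.98]. Csa1G542510, for all its depth, was at 0.07 [0.04 to 0.10], a 1.05-fold difference. Summed over the 7 copies, RPKM was 6332 in the ventral library and 7241 in the dorsal one, a sum that follows the 2 highest copies. That is 1.14-fold higher in the dorsal library, beside 1.11-fold for the RPKM summed over all genes.

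Of the 5 PP2-A9 copies 3 were measured, and the log2 ratio of each was below 0. Csa1G709160 had 1195 ventral and 1679 dorsal reads, an RPKM of 60.9 and 154, and a log2 ratio of -1.58 [-1.69 to -1.48]. Csa1G708660 had 724 and 905 reads, an RPKM of 35.8 and 80.6, and was 2.67-fold higher (-1.41 [-1.56 to -1.27]). Both stood apart. Csa6G538620, on chromosome 6, had 770 and 554 reads, an RPKM of 43.7 and 56.7, and did not stand apart (-0.62 [-0.78 to -0.46]). This copy held the second level of the 3 in the ventral library and the lowest in the dorsal library, and the counting intervals of its RPKM and that of Csa1G708660 did not overlap in either one. The remaining pair, Csa1G703570 with 0 and 2 reads and Csa1G703580 with 1 and 0, were at or below the floor of 3 reads that a count of 0 allows (0.137 CPM in the ventral and 0.252 CPM in the dorsal library), so no ratio is given.

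The single homologue of Arabidopsis locus AT4G19850, which the table calls PP2A2 (Csa1G542490), had 1284 ventral and 1010 dorsal reads and an RPKM of 64.9 and 92.0. It did not stand apart, being 1.68-fold higher in the dorsal library (-0.75 [-0.87 to -0.63]). Its identifier precedes those of the PP2-A1 copies Csa1G542500 and Csa1G542510, whose log2 ratios were above 0.

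The 4 A-type genes of the A11 to A15 class, which in Arabidopsis encode F-box lectins, were present at an RPKM of 10.9 to 36.4, and none stood apart. PP2-A14 (Csa5G173520), with 535 ventral and 145 dorsal reads, had the highest ratio of the 4, 1.73-fold higher in the ventral library (0.79 [0.52 to 1.07]). PP2-A15 (Csa3G748230) had 632 and 226 reads (0.39 [0.17 to 0.62]) and PP2-A13 (Csa3G124230) 1258 and 525 (0.17 [0.02 to 0.32]). PP2-A11 (Csa3G043900), with 636 and 392 reads, was the one with a ratio below 0 (-0.39 [-0.58 to -0.21]). The median of the 4 was 0.28, against -0.70 for the 11 measured copies of A1, A2 and A9. The classes differ in median exonic length, 1472 against 891 bp, and with the length trend removed the medians were 0.26 and -0.31. Splitting the A type by this class was a choice made with the values known, and the median of the 4 is a description. PP2-A14 stood apart in the ventral library when reads were scaled by total (1.01) or when the length trend was removed (1.12).

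**Figure D2:**
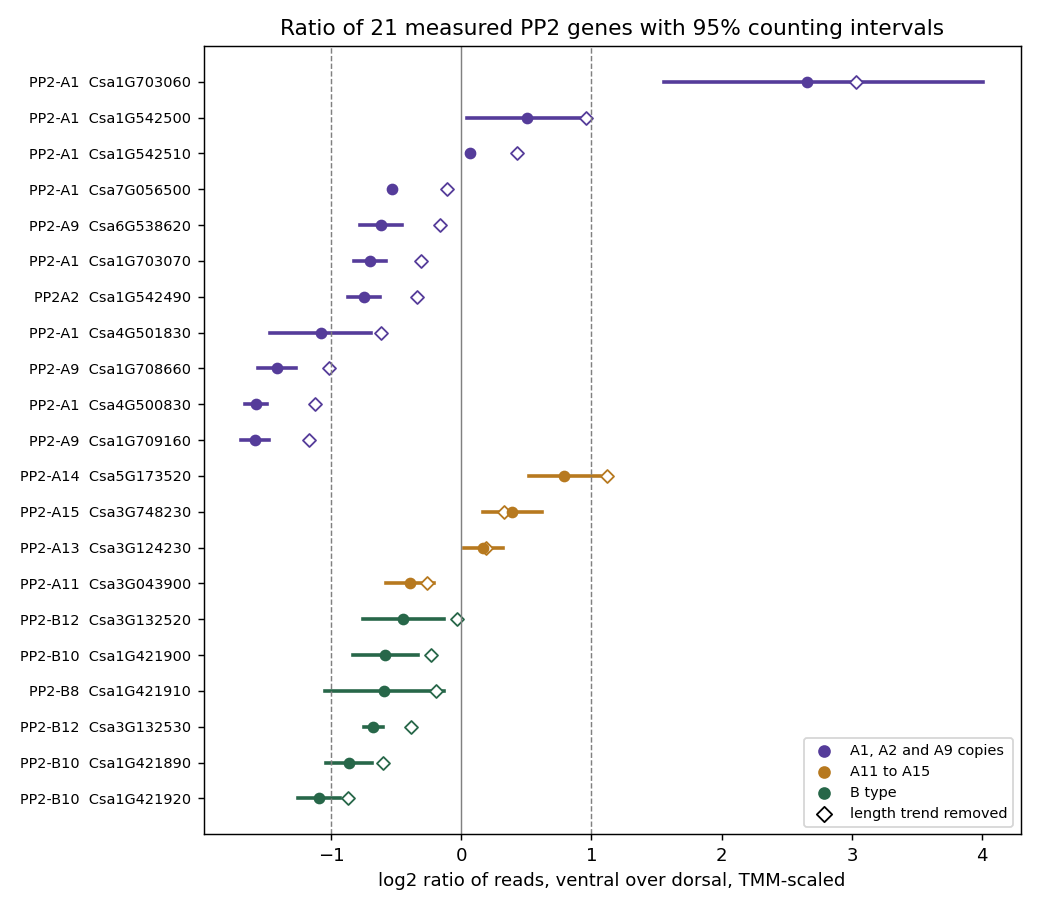
Log2 ratio of reads, ventral over dorsal, for the 21 measured members (filled points with 95% counting intervals as bars) and the same ratio with the length trend removed (open diamonds); dashed lines mark 2-fold. Csa1G703060 is the one interval wholly above 1, while Csa4G500830, Csa1G709160 and Csa1G708660 lie wholly below -1.

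All 6 measured B-type genes had a log2 ratio below 0, within a narrow span of -1.09 to -0.44 and with a median of -0.63. With the length trend removed the 6 ran from -0.87 to -0.03. The intervals of Csa3G132520, Csa1G421900 and Csa1G421910 then included 0. PP2-B12 copy Csa3G132530 was the most abundant, with 3653 ventral and 2736 dorsal reads, an RPKM of 153 and 207 and a log2 ratio of -0.68 [-0.75 to -0.60]. It held 66.1% of the summed B-type RPKM in the ventral library and 63.5% in the dorsal one. The other measured PP2-B12 copy, Csa3G132520, had 221 and 141 reads (-0.44 [-0.76 to -0.13]).

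PP2-B10 was represented by 3 copies that, with PP2-B8, carry consecutive identifiers on chromosome 1. Csa1G421920, with 626 ventral and 625 dorsal reads and an RPKM of 23.6 and 42.5, was the B-type gene that stood apart, 2.13-fold higher in the dorsal library (-1.09 [-1.25 to -0.93]). Removal of the length trend brought it to -0.87 and scaling by total reads to -0.88, both under 2-fold. Csa1G421890 had 588 and 501 reads (-0.86 [-1.04 to -0.69]) and Csa1G421900 325 and 228 (-0.58 [-0.83 to -0.33]). PP2-B8 (Csa1G421910), at 99 and 70 reads, was at -0.59 [-1.05 to -0.13]. The remaining 3 B-type genes were not measured. The third PP2-B12 copy, Csa3G132020, had 3 ventral and 13 dorsal reads, a log2 ratio of -3.21 [-5.66 to -1.34], and the PP2-B15 copies Csa2G032230 and Csa2G032730 had 5 and 8 reads and 1 and 0 reads.

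Copies of the same name were compared with one another by the odds ratio of their reads in the libraries, in which library scaling cancels. Of the 21 pairs of PP2-A1 copies, 19 had a 95% interval that excluded 1. The 2 abundant copies differed by 1.51 [1.48 to 1.55], Csa1G542510 being the more ventral, so that its share of PP2-A1 RPKM was 23.9% in the ventral library and 16.9% in the dorsal one while that of Csa7G056500 was 73.0% and 77.9%. The widest contrast, Csa1G703060 over Csa4G500830, was 18.8 [8.74 to 48.1]. The intervals that included 1 were those of Csa1G542500 against Csa1G542510 (1.35 [0.980 to 1.89]) and of Csa1G703070 against Csa4G501830 (1.30 [0.982 to 1.73]). Within PP2-A9, Csa6G538620 was more ventral than Csa1G709160 by 1.95 [1.71 to 2.23] and than Csa1G708660 by 1.74 [1.50 to 2.02], whereas the last 2 differed by 1.12 [0.992 to 1.27]. The intervals compare the reads of these 2 libraries only, not other fruits. The tables do not say how reads that match several copies were counted, so values of near-identical copies are uncertain.

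**Figure D3:**
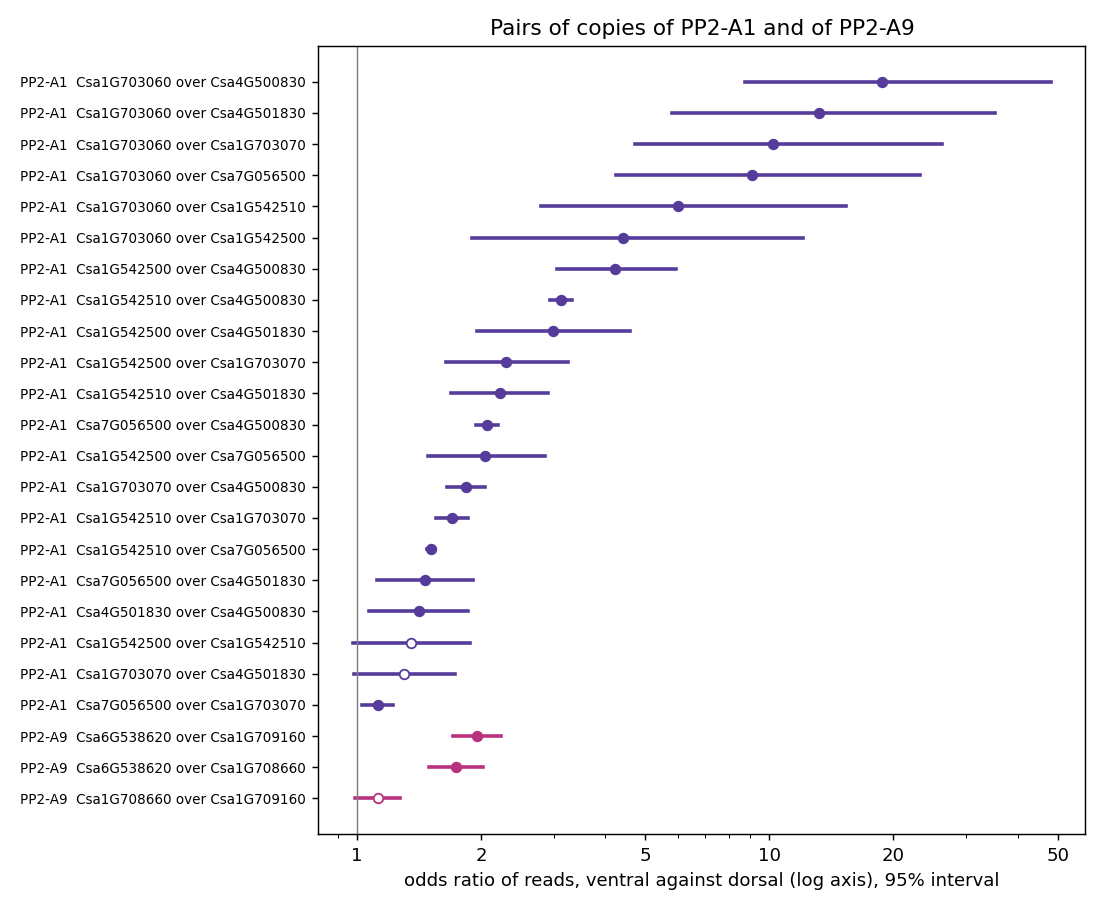
Odds ratio of reads (log axis) with its 95% interval for the 21 pairs of PP2-A1 copies and the 3 pairs of PP2-A9 copies, the more ventral copy named first; open points have intervals that include 1. Every pair with Csa1G703060 lies above 4, and the pair Csa1G708660 and Csa1G709160 lies near 1.

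Neighbouring identifiers went with close ratios in some runs and not in others. The 4 B-type genes Csa1G421890 to Csa1G421920 spanned 0.51 on the log2 scale, the PP2-A9 copies Csa1G708660 and Csa1G709160 0.17, and the PP2-A1 copies Csa4G500830 and Csa4G501830 0.50. The run of PP2A2 and PP2-A1 genes Csa1G542490 to Csa1G542510 spanned 1.25, and the adjacent PP2-A1 copies Csa1G703060 and Csa1G703070 3.35. No other gene of the read table has an identifier inside these runs. The tables hold no positions, so distance on the chromosome was not examined.

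The ratio rose with transcript length over all genes, and PP2 genes are short. Reads divided by RPKM give an exonic length, whose median was 935.5 bp for measured members, from 525 bp for Csa7G056500 to 1698 bp for PP2-A15, against 1463 bp for all measured genes. With all measured genes cut into 5 equal classes by this length, the shortest class held 5 members and the next one, up to 1259 bp, 13. In that next class the median log2 ratio of all genes was -0.32 and 16.9% stood apart in the dorsal library, beside a median of -0.68 for its 13 members; in the shortest class these values were -0.40, 24.1% and, for its 5 members, -0.62. The Spearman correlation of ratio and length was 0.39 across 17462 genes, which are not independent replicates.

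With the trend on length removed, 10.9% of all measured genes stood apart in the ventral library and 8.34% in the dorsal one. Among members Csa4G500830, Csa1G709160 and Csa1G708660 stood apart in the dorsal library, at -1.12, -1.17 and -1.02, and Csa1G703060 and PP2-A14 in the ventral library, at 3.03 and 1.12. Csa4G501830 was short of 2-fold, at -0.61, as it was with scaling by total reads, at -0.87. Csa7G056500 moved to -0.11, Csa1G542510 to 0.43 and the B-type median to -0.31. The part of length in the PP2 values beyond this was not tested.

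**Figure D4:**
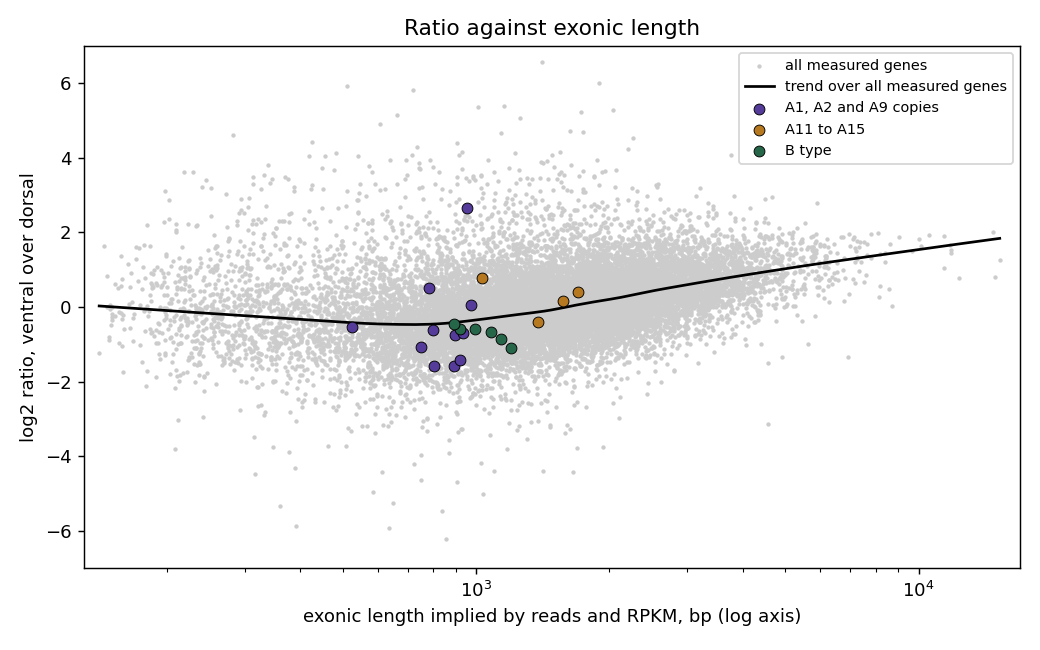
Log2 ratio against exonic length (log axis) for all measured genes (grey), with the trend over them as a black line and PP2 members as coloured points. The trend lies below 0 at the lengths of all but 1 measured member, and Csa1G703060 stands far above it.

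Other genes of phloem biology were compared with the PP2 genes. The list of sieve element and companion cell genes, chosen by Arabidopsis locus or symbol, had 43 rows, of which 39 were measured; 2 stood apart in the ventral library and 7 in the dorsal one, and the median log2 ratio was -0.07, or 0.15 when reads were scaled by total. The ratio was above 0 for 18 and below 0 for 21. With the length trend removed the phloem median was -0.34, with 28 of 39 below 0, beside -0.23 and 15 of 21 for the PP2 members. The filament protein gene SEOR1, whose product fills sieve elements, had 10 copies with a median of 0.03, -0.34 with the trend removed, and a median exonic length of 2300.2 bp. The copy Csa2G193340 was the most abundant of the list, at an RPKM of 243 and 245. It had 10248 ventral and 5727 dorsal reads (-0.25 [-0.30 to -0.21]). Csa2G196900, with 12662 and 3959 reads and an RPKM of 239 and 135, leaned to the ventral library (0.58 [0.53 to 0.64]). Of the 10 copies 5 had a ratio above 0 and 5 below. Their summed RPKM was 848 in the ventral library and 673 in the dorsal one. One copy stood apart, Csa2G193380 with 621 and 657 reads (-1.17 [-1.33 to -1.01]), which was short of 2-fold, at -0.96, with scaling by total reads.

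Higher in the dorsal library besides were 2 copies of RTM2, a small heat shock-like protein that restricts virus movement in Arabidopsis phloem, namely Csa5G612830 with 444 and 608 reads (-1.55 [-1.73 to -1.37]) and Csa6G046370 with 71 and 96 (-1.53 [-1.99 to -1.07]). Another measured RTM2 copy, Csa6G046380 with 701 and 320 reads, did not stand apart (0.04 [-0.15 to 0.23]). A homologue of locus AT4G39810, Csa6G500610, had 370 and 533 reads (-1.62 [-1.81 to -1.42]). The florigen homologue FT (Csa1G651710), which is made in companion cells, had 383 and 398 reads (-1.15 [-1.35 to -0.94]) and was short of 2-fold with the length trend removed, at -0.77, or with scaling by total reads, at -0.93. The callose synthase gene GSL7 (Csa5G420330) and the DOF factor gene HCA2 (Csa1G074960) rested on 6 and 15 and on 4 and 17 reads (-2.41 [-4.07 to -0.97] and -3.18 [-5.21 to -1.56]). More abundant copies of the same symbols had ratios above 0, namely Csa7G236800 (GSL7) with 858 and 263 reads (0.61 [0.41 to 0.82]) and Csa1G046080 (HCA2) with 321 and 77 (0.97 [0.60 to 1.35]), the latter standing apart, at 1.34, with the length trend removed. Higher in the ventral library were the sugar exporter gene SWEET12 (Csa1G051710), with 222 and 24 reads (2.12 [1.51 to 2.79]), and a copy of the receptor kinase gene XIP1 (Csa2G372790), with 1718 and 189 (2.09 [1.87 to 2.32]). The other XIP1 copy, Csa3G893960 with 258 and 99 reads, did not stand apart (0.29 [-0.05 to 0.64]).

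Markers of other cell types also differed between the libraries. Of 8 measured xylem genes 6 stood apart in the dorsal library and 0 in the ventral one, at a median of -1.22. These 6 were XCP1 (Csa7G027790, -1.76), XCP2 (-1.30), IRX9 (-1.23), MUR10 (-1.21) and the XND1 copies Csa2G334550 (-3.22) and Csa7G058030 (-1.09). Of the list Csa2G334550 had the highest dorsal RPKM, while Csa7G058030 rested on 22 and 22 reads. LEW2 (-0.21) and NWS2 (0.55) did not stand apart. With scaling by total reads MUR10, at -0.99, and Csa7G058030, at -0.88, were short of 2-fold. With the length trend removed 4 stood apart in the dorsal library, at a median of -1.09. The summed RPKM over all 10 xylem rows was 38.0 on the ventral and 103 on the dorsal side. All 3 light-harvesting genes used as green tissue markers had ratios below 0, 2 of them standing apart, with a summed RPKM of 1696 and 4301. These 2 were LHCA2 (-1.67) and LHCB3 (-2.08), while LHCA1 was at -0.42, or -0.12 with the length trend removed. Epidermis markers had a median of 0.18 over 11 measured genes and a summed RPKM of 244 and 234. Of the 11, however, 2 that share the symbols PDF2 and FDH are homologues of other loci. These 2, Csa5G638310 at an RPKM of 84.03 and 115.64 and Csa3G836500 at 46.25 and 35.06, make up most of that sum. In the ventral library 1 epidermis marker stood apart, ATML1 (Csa1G064670, 1.43). In the dorsal library 2 did, the protodermal factor PDF2 (Csa6G514870, -1.25) and a CER22 copy (Csa3G127770, -1.16). With the length trend removed the epidermis median was 0.02. Carpel and ovule markers had a median of -0.91 over 5 measured genes. Of these CRC (Csa5G606780, -2.53) and FUL (Csa1G039910, -1.05) stood apart in the dorsal library and a copy of SPT (Csa6G491000, 1.61) in the ventral one, while AG (Csa1G467100), the most abundant after FUL, did not (-0.91). The CRC call rested on 10 ventral and 27 dorsal reads and the SPT call on 52 and 8. A more abundant SPT copy, Csa2G356640 with 240 and 124 reads, did not stand apart (-0.14 [-0.46 to 0.18]). FUL was short of 2-fold, at -0.77, when the length trend was taken out. Both INO copies were below an RPKM of 1, and the 2 cambium genes were at 0.90 and -0.14. Whether these shares have a part in the PP2 values was not tested.

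Of other genes with lectin in their name 4 were measured, with log2 ratios from -0.82 to 2.11. EULS3 (Csa4G193240), a lectin of the Euonymus type, was abundant, with 4680 and 3869 reads and an RPKM of 163 and 242 (-0.82 [-0.88 to -0.76]). A lectin receptor kinase homologue (Csa4G296230) stood apart in the ventral library with 83 and 9 reads (2.11 [1.12 to 3.29]). The jacalin gene JAL34 (Csa3G859630) and the receptor kinase gene LECRKA4.3 (Csa3G730910), with 17 and 3 and with 22 and 5 reads, did not stand apart.

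**Figure D5:**
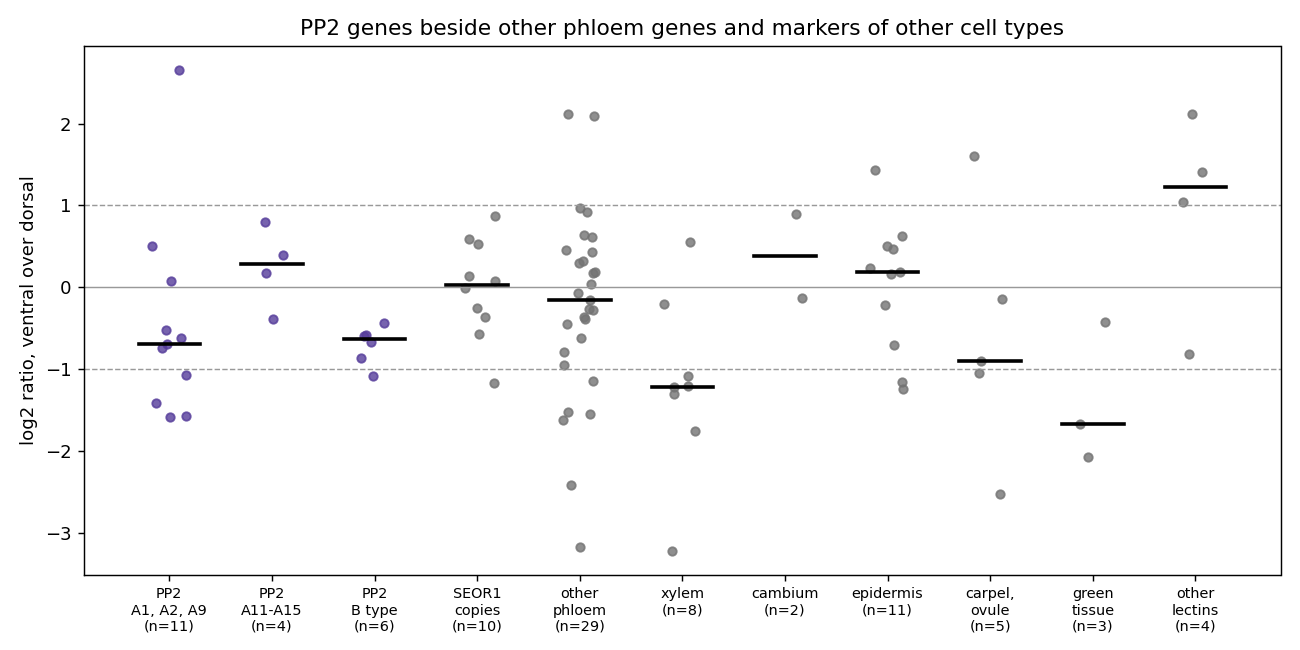
Log2 ratio of each measured gene (points, spread sideways for visibility) and the median (bars) for PP2 genes by class, SEOR1 copies, other phloem genes, markers of other cell types and other lectins; dashed lines mark 2-fold. PP2 B-type genes fall between -1.09 and -0.44, and xylem markers have a median of -1.22.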

How the data were processed

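Poly(A) RNA of 1 ventral and 1 dorsal sample was sequenced from strand-specific libraries, per the labels' protocols, which name a paired-end and also a single-end instrument but not which of them read which library. TopHat2 and edgeR are listed, without versions, in the submitters' processing notes; the build, the counting tool and its strand setting were not given in the sources used here. The authors deposited read counts per gene without normalization, and RPKM values scaled for length and depth. From the counts, TMM scaling was fitted on all 20700 genes with edgeR 4.0.16 (R 4.3.3). Ratios carry exact conditional binomial 95% intervals, and odds ratios exact conditional ones (scipy 1.17.1). Exonic length was reads over RPKM, with a constant set so that its ratio to gene length is 1 at the 99th percentile among genes at an RPKM of 10 or more. The length trend was a lowess fit (statsmodels 0.14.6, fraction 0.3). The calculation was tested on simulated counts with counting error only, so that test says nothing of variation between fruits or libraries. No PP2 sequence is printed, as no sequence was used here. The members, gene lists and rules were chosen with earlier results of these data known. Every member is named. Of other phloem genes, those standing apart, the most abundant and some further copies of their symbols are named. Alternatives were other scalings, minimums, intervals and folds, RPKM with a pseudocount, and removal of the length trend.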

Additional observations from a re-analysis of the deposited data

How the results depend on the processing

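No paired analysis was possible because there is only 1 library per side. With scaling by total reads, which raises every log2 ratio by 0.21, the medians of all, A-type and B-type members were -0.38, -0.32 and -0.42; with the length trend removed -0.23, -0.16 and -0.31; from RPKM with a pseudocount of 0.1 -0.34, -0.29 and -0.39, and of 1 -0.32, -0.29 and -0.38. Without its 2 most abundant copies, an alternative chosen after the data were seen, the A-type median was -0.62. With a minimum of 1 read the B-type median was -0.86 and the dorsal calls numbered 6, with Csa3G132020. At that minimum 10.2% of genes were dorsal calls. The B-type median there counts Csa2G032730, with 1 ventral and 0 dorsal reads, at -2.68, because its dorsal count was set to the floor of 3 reads. Members standing apart numbered 2 ventral and 3 dorsal with total reads, with the length trend removed or from RPKM with a pseudocount of 0.1, and 1 and 3 with a pseudocount of 1; the 3 were the same genes in each. A fold of 1.5 gave 2 and 11. Ventral and dorsal calls took 24.9% and 22.2% of all measured genes at that fold. They took 19.1% and 7.3% with total reads, 19.5% and 6.7% with a pseudocount of 0.1, and 14.4% and 5.3% with a pseudocount of 1. Over all genes total reads gave 3336 ventral and 1283 dorsal calls, a ventral share of 72.2% in place of 55.1%. Other phloem genes had a median of 0.15 with total reads, 0.18 and 0.17 from RPKM with pseudocounts of 0.1 and 1, and -0.34 with the length trend removed, and 5 ventral and 5 dorsal calls with total reads and with either pseudocount, in place of 2 and 7; with a minimum of 100 reads the dorsal calls were 5 and the median 0.02. Other lectins had 2 ventral calls from RPKM with a pseudocount of 0.1; a minimum of 100 reads left 1 gene, a median of -0.82 and 0 ventral calls. Csa7G056500 held 55.4% of A-type reads in the ventral library and 60.3% in the dorsal one. DESeq2 size factors, TMM on measured genes (added after the data were seen) and a 99% interval changed no call on a member. The 5 members under 20 reads were not counted as measured, and whether more depth would change this was not tested.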

Other observations

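The homologue of AT1G56250 (VBF, Csa1G568500), a locus also known in Arabidopsis as a B-type PP2 gene, is not matched by the rule because the table gives it another name. It had 0 ventral and 85 dorsal reads, with an upper interval bound of -5.59 on the log2 scale, outside the span of the 6 measured B-type members. MEE66 (Csa2G094900), the homologue of AT2G02240 and likewise not matched by the rule, had 533 and 265 reads and did not stand apart (-0.08 [-0.30 to 0.13]). Both were named after their values were seen.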
